A study of Mus musculus with 15 samples.

Results

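Among 15 forebrain samples of mice, 10 came after hypoxic ischemia, in which the brain receives too little blood and the blood carries too little oxygen, and these 10 were graded by a score of 6 injury-response genes. The score of an array was the mean log2(intensity + 16) of the brightest probe set of Vim, Timp1, Cd14, Cd68, Socs3 and Ccl12. The group mean was then subtracted from the score and from every other gene, so that only the differences between arrays treated alike were used. The question was which other genes rose or fell with the score from one array to the next. The 10 arrays were chosen by their labels, and the genes described were selected on measured values, their slopes against the score. RNA was measured on Affymetrix mouse arrays, on which several short probes make up a probe set for each transcript. The graded arrays were 5 with a vehicle injection before hypoxic ischemia (VEH-HI 6 to 10) and 5 with erythropoietin at 5 U per g, injected into the peritoneum, before hypoxic ischemia (EPO-HI 11 to 15). The other 5 had a vehicle injection before sham surgery (VEH-Sham 1 to 5) and did not enter the grading. Each injection came 1 h before the procedure. All samples are total RNA of forebrain from mice for which the labels name no allele. Nothing in the labels gives strain, age, sex, the time from the procedure to sampling, the side of the brain or any pooling of animals. No measure of tissue damage was analysed here, so the score is a score of marker genes and not of injury itself. Whether each array holds RNA of its own animal is not stated, and p-values then measure only the spread between these arrays, which may be technical.

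Shortage of oxygen and glucose in brain tissue is known to induce immediate early genes and stress genes within the cells it reaches, and then signals such as IL-6 family cytokines, chemokines and ligands of Toll-like receptors. Through the transcription factors STAT3, NF-kB and AP-1 these act on astrocytes and microglia, which change shape and gene expression, and on vessels, which let leukocytes in. The 6 markers come from different parts of that response: Vim encodes an intermediate filament of reactive astrocytes and vessel cells, Timp1 an inhibitor of matrix metalloproteinases, Cd14 a co-receptor for bacterial and endogenous ligands, Cd68 a lysosomal protein of microglia and macrophages, Socs3 a feedback inhibitor of STAT3 signalling and Ccl12 a chemokine that attracts monocytes. In RNA of a whole forebrain, a larger number of cells of a type and more RNA per cell cannot be told apart.

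The score read 9.25, 8.55, 8.89, 8.09 and 7.78 in VEH-HI 6 to 10 and 8.79, 8.00, 7.75, 7.89 and 8.95 in EPO-HI 11 to 15. It spread over 1.47 log2 units within VEH-HI and 1.19 within EPO-HI, against 0.32 within VEH-Sham, where it lay between 6.49 and 6.81. In VEH-HI the values formed a ladder, while in EPO-HI arrays 11 and 15 stood above the other 3. The 2 hypoxic ischemia groups overlapped over nearly their whole range, with means of 8.51 ± 0.59 (SD, n = 5) in VEH-HI and 8.28 ± 0.55 (SD, n = 5) in EPO-HI. The markers had been chosen with results of these data known, so levels of the score by group are a description with no test.

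**Figure D1:**
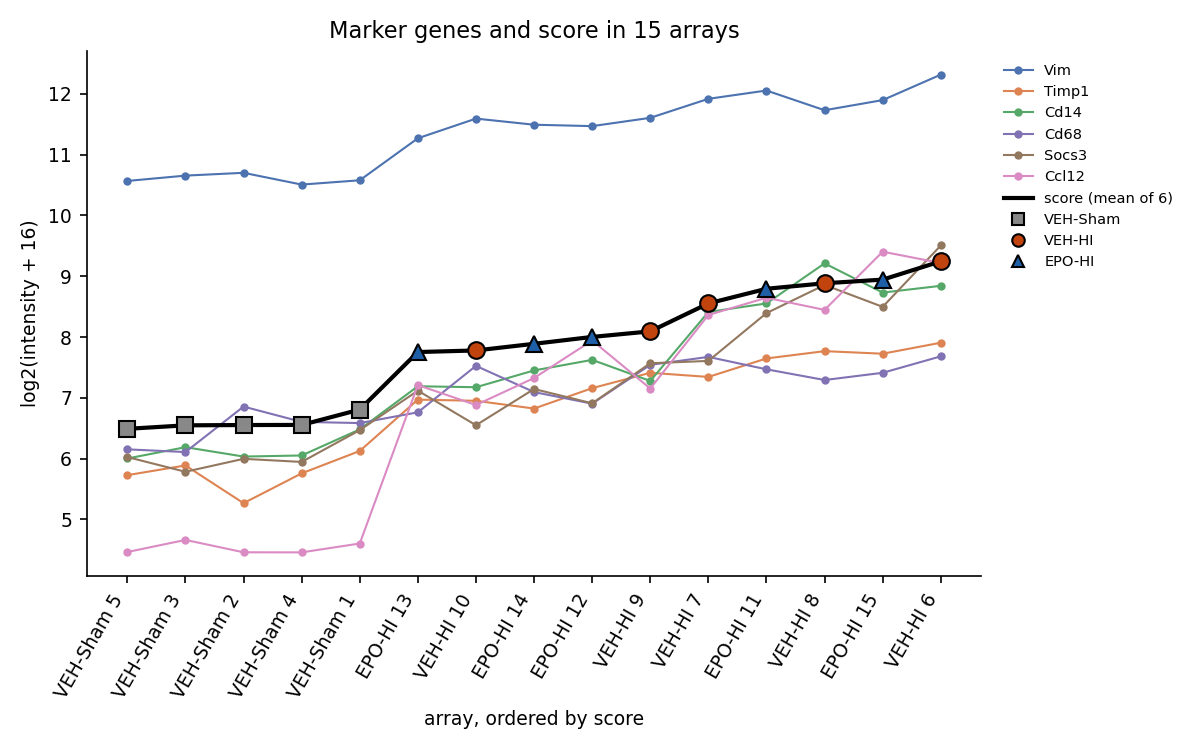
Level of the 6 marker genes (thin lines) and their mean, the score (thick line), on the log2(intensity + 16) scale in each of 15 arrays ordered by score; symbols mark the group. The 5 VEH-Sham arrays end at 6.81, and the 10 arrays after hypoxic ischemia run from 7.75 to 9.25 with both groups interleaved.

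The 6 markers graded the arrays alike to different degrees. With group means subtracted, the correlation of a marker with the mean of the other 5 over the 10 arrays was 0.949 for Ccl12, 0.935 for Timp1, 0.910 for Cd14, 0.904 for Socs3 and 0.869 for Vim, but 0.539 for Cd68. These correlations describe the score and carry no test. Because the markers were averaged on the log2 scale, those with the largest spread carried most weight: Socs3 made up 27.4% of the variance of the score, Ccl12 27.0% and Cd14 22.5%, against 10.8% for Timp1, 8.16% for Vim and 4.22% for Cd68. Socs3 spanned 6.55 to 9.51 in VEH-HI, while Cd68 spanned only 7.29 to 7.68 there. The grading therefore followed Socs3, Ccl12 and Cd14 more than the macrophage marker Cd68.

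Several measures of the arrays moved with the score or set single arrays apart. The median log2 intensity of an array, which lay between 5.79 and 5.92 in the 10 arrays, correlated with the score (Pearson r = 0.815, two-sided exact permutation p = 0.0138, 0.0413 after adjustment over 3 array measures; Spearman rho = 0.661, exact permutation p = 0.0591, adjusted 0.177). Without VEH-HI 6 and EPO-HI 15, the arrays farthest from the median score, r was 0.768. The ratio of the 3′ to the 5′ control probe set, a sign of RNA quality, correlated with the score at r = -0.186 for Gapdh (exact permutation p = 0.617) and -0.262 for Actb (exact permutation p = 0.488). Without the same 2 arrays r was -0.658 for Gapdh and -0.0575 for Actb. The 10 arrays correlated with each other at 0.965 to 0.982 over the 27022 probe sets bright enough to test. VEH-HI 6 had the highest score. In it Xist, the RNA of the inactive X chromosome, read 4.13 against 7.33 to 9.65 in the other 9. Y-linked Eif2s3y was highest in the same array, at 8.96 against 6.89 to 8.38 in the other 9. Those 9 thus had signal of both genes. Whether sex or pooling differed between arrays was not tested. In EPO-HI 15 the pituitary hormone genes Gh and Pomc read 11.09 and 10.46, against at most 6.09 and 6.70 in the other 9, and of the sham arrays VEH-Sham 3 was also high, at 10.26 and 8.90. These 4 genes were picked after their values were seen. Results are therefore given with and without these arrays where a call turned on them; the part of the array median in the results was examined by adding it to the model. VEH-Sham 1 to 4 had array medians of 6.16 to 6.21, above the 5.80 of VEH-Sham 5 and the range of the 10 graded arrays, and VEH-Sham levels below are printed with VEH-Sham 5 apart for that reason.

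For each probe set, a line was fitted to log2(intensity + 16) against the score with 1 slope and 2 group means (limma, 10 arrays). A slope of 1 means that a gene rose as steeply as the mean of the markers, a doubling for each doubling of their geometric mean. A probe set or gene was called when its limma p, Benjamini-Hochberg adjusted over all 27022 tested probe sets, was under 0.05. Marker probe sets are left out of all counts. Of 27012 probe sets, 187 rose with the score (0.692%) and 6 fell (0.0222%), 0.714% in either direction. With each gene represented by its brightest tested probe set, 123 of 13162 genes rose (0.935%) and 4 fell (0.0304%), 0.965% in either direction. The slopes of the 123 had a median of 0.74 and ran from 0.39 to 2.32. The median slope of all 13162 genes was 0.0061, and 51.6% had slopes above 0, so the slopes of the bulk of the genes centred near 0. These shares over all genes, 0.935% called risers, 0.0304% called lower and 51.6% with slopes above 0, are the background for every list below. All 127 called genes had slopes of the same sign in both groups and with any single array left out. They were selected on the slope pooled over both groups and all 10 arrays, so this is not a replication between groups.

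The steepest risers were some genes of the neutrophil list, an immediate early gene and a chemoattractant gene. S100a9 and S100a8, which encode the subunits of calprotectin, had slopes of 2.32 ± 0.45 and 2.19 ± 0.46 (SE, n = 10 arrays), Lcn2, the siderophore-binding protein lipocalin 2, had 2.09 ± 0.36, and the AP-1 subunit gene Fos and the monocyte chemoattractant gene Ccl2 had 1.83 ± 0.13 and 1.75 ± 0.15. The 10 genes with the smallest p among risers were Fos, Ccl2, Ccn1, Ifitm3, Serpina3n, Cyp1b1, Ifi202b, Tm4sf1, Plin2 and Hmox1, and each of the 10 kept its call with any single array left out. Of the 127 genes 37 were called with each of the 10 arrays left out in turn, 41 without VEH-HI 6, 57 without VEH-HI 10, 70 without EPO-HI 15, 81 without EPO-HI 11 and 92 to 120 without one of the other arrays. Without both VEH-HI 6 and EPO-HI 15, 17 of the 127 were called. With the array median as a further covariate, 30 of the 127 were called (48 genes in all rose, 0.365%, and 6 fell, 0.0456%), and all 127 kept their sign. The median slope over the 123 risers was 0.81 with the covariate, and 73 of the 127 had a slope at least as large as without it. The median SE went from 0.13 to 0.22. Because the array median correlated with the score (r = 0.815), the parts of the 2 cannot be told apart in these arrays.

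**Figure D2:**
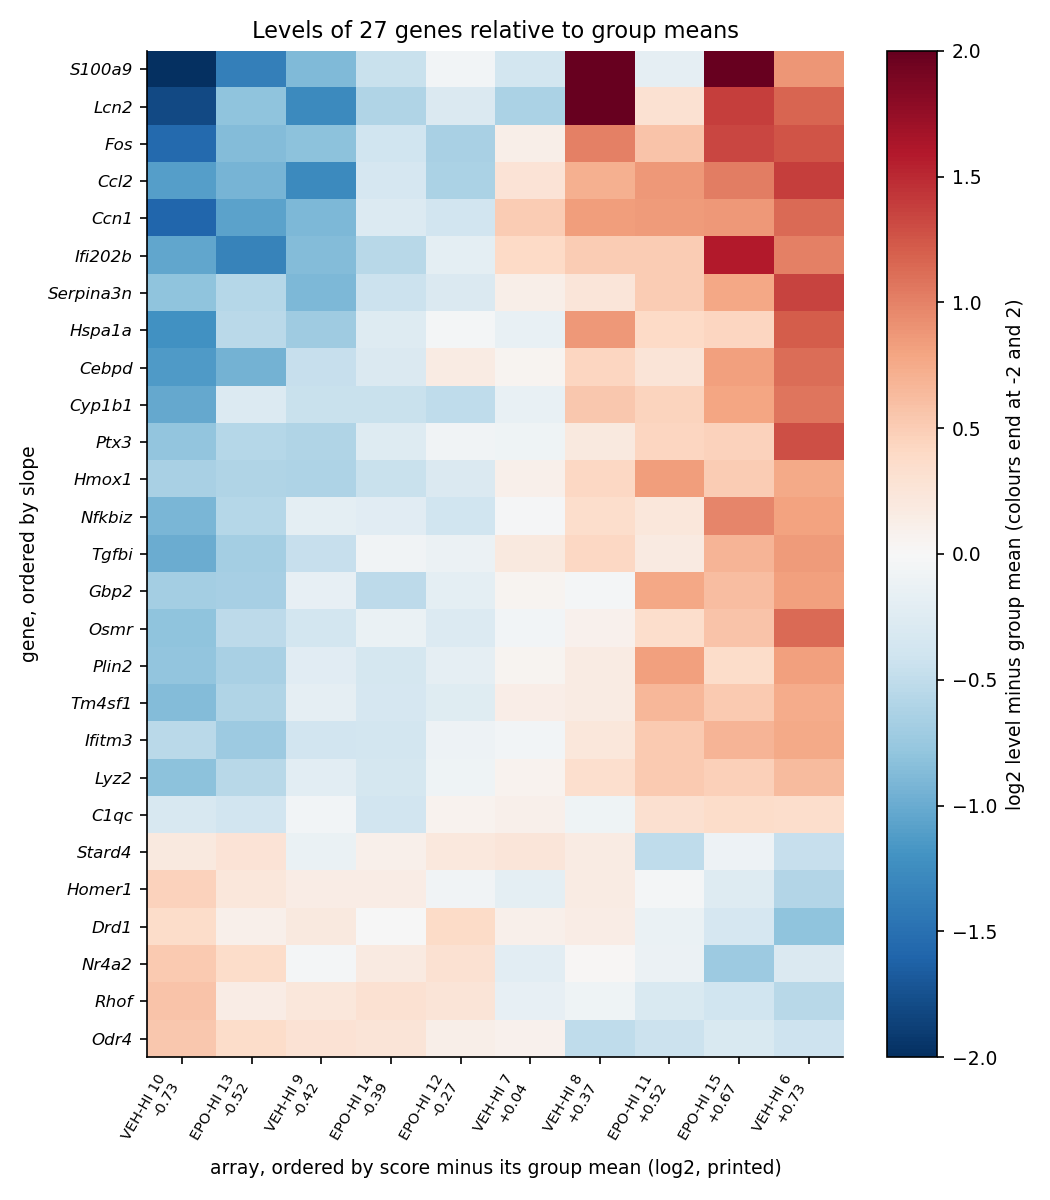
Levels of 27 genes in the 10 arrays after hypoxic ischemia, as log2(intensity + 16) minus the mean of the array's own group (colour, red above and blue below the mean), with arrays ordered from left to right by the score minus its group mean. The risers turn from blue in VEH-HI 10 to red in VEH-HI 6. The colours reach their red end for S100a9 in VEH-HI 8 and EPO-HI 15 and for Lcn2 in VEH-HI 8, and their blue end for S100a9 in VEH-HI 10.

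Exact permutation of the score within groups, with 14400 arrangements and a smallest possible p of 6.94e-05, gave a check that needs no model of the spread. All 127 called genes had a permutation p of Pearson's r of at most 0.0176. Because the 127 were selected by their slopes on the same score in the same arrays, this is no independent support for the calls. After adjustment over the 13162 genes no gene passed, with a smallest adjusted p of 0.0703 for Pearson's r and 0.0831 for Spearman's rho, while 1371 and 1250 genes had unadjusted p under 0.05, against 658 expected by chance. The permutation p of single genes below are unadjusted for that reason. With this smallest possible p, an adjusted p under 0.05 would have needed many genes to share it. The adjusted permutation result therefore cannot decide on single genes. The limma calls rest on its model of the spread across all probe sets.

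Sequences just upstream of 3 of the 10 leading risers are shown because they match short patterns searched for STAT, AP-1 or NF-kB factors. These are the factors of the signalling genes described below. The promoters are RefSeq's, build GRCm38.p6, 250 bases before to 50 after the gene's start, read 5′ to 3′ on the gene's strand, with matches in capitals. Ifi202b lies on the minus strand at chr1:173982795-173983094 and holds a STAT match at bases 103 to 111 of the window. Ifitm3 lies on the minus strand at chr7:141010695-141010994 and holds an AP-1 match at bases 146 to 152 and a STAT match at bases 264 to 272. Serpina3n lies on the plus strand at chr12:104406458-104406757 and holds an NF-kB match at bases 80 to 89.
Ifi202b: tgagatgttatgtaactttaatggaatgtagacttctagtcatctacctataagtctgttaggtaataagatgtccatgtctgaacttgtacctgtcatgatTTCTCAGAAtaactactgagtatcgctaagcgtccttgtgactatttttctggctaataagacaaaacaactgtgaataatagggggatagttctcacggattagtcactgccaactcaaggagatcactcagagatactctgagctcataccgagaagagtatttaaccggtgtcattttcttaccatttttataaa
Ifitm3: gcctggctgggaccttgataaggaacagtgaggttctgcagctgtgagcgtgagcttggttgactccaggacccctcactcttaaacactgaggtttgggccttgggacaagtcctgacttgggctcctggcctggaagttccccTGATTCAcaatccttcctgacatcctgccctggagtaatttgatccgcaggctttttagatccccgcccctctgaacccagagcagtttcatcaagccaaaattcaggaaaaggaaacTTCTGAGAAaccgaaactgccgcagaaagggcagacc
Serpina3n: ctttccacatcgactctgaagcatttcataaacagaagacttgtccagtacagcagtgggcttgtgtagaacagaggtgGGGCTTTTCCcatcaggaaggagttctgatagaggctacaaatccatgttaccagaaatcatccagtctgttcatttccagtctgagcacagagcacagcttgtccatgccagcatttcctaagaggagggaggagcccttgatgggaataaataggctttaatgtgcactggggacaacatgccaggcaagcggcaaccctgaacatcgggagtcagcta

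The letters searched, on both strands, were TTCNNNGAA for STAT, TGA and TCA with any base between them for AP-1 and GGG and TTTCC with any 2 bases between them for NF-kB, and matches of different factors did not overlap in the 3 windows shown. RefSeq promoters were matched by symbol to 102 of the 123 risers (122 promoters). A STAT match stood in 15.6% of these promoters, against 6.63% of the 13643 promoters of tested genes and 8.3% of all 32851. An AP-1 match stood in 12.3%, against 5.17% and 7.81%, and an NF-kB match in 7.38%, against 1.5% and 1.63%. The sterol regulatory element pattern TCACNCCAC was searched too. It stood in 2.46% (3 promoters), against 1.16% and 1.24%, so a higher share among risers was not limited to the other patterns. Among the 8 of the 10 leading risers with a promoter, those of Fos, Ccn1, Cyp1b1, Tm4sf1 and Plin2 hold no match to any of these patterns in these 300 bases. The shares are descriptions with no test, and a match is not evidence of binding. Because the patterns allow any base at some positions, a match need not be a known site of the factor.

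Of 24 tested immediate early genes, which cells switch on within minutes of a signal without new protein synthesis, 8 rose with the score and 1 fell, with a median slope of 0.43 against 0.0061 for all genes. At an unadjusted limma p under 0.05, 14 of the 24 rose, against 6.82% of all genes. Fos read 10.22, 9.07, 9.96, 8.14 and 7.40 in VEH-HI 6 to 10 and 9.05, 7.82, 7.61, 8.08 and 9.81 in EPO-HI 11 to 15. It was highest in VEH-HI 6 and 8 and EPO-HI 15 and lowest in VEH-HI 10 and EPO-HI 13, and the 2 groups overlapped. It read 6.96 to 7.25 in VEH-Sham 1 to 4 and 7.48 in VEH-Sham 5, and of the 10 only VEH-HI 10 lay below VEH-Sham 5. The slope of Fos was 1.83 ± 0.13 (SE, n = 10; limma adjusted p = 2.31e-06), a 3.55-fold rise per unit of score. Its correlation with the score was r = 0.975 and rho = 0.964 (exact permutation p = 0.000208 for both), and r = 0.956 without the 2 arrays farthest from the median score.

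The stress gene Ier3 rose with a slope of 1.17 ± 0.15 (limma adjusted p = 0.000812), Junb, an AP-1 subunit, with 0.83 ± 0.13 (limma adjusted p = 0.00334), and Jun with 0.81 ± 0.12 (limma adjusted p = 0.00168). Ier2, a nuclear stress-response gene, rose by 0.92 ± 0.14 per unit (limma adjusted p = 0.00271). The remaining risers of the list were Atf3, a transcription factor of the integrated stress response, at 0.93 ± 0.16, the zinc finger factor gene Egr1 at 0.67 ± 0.11 and the orphan receptor gene Nr4a1 at 0.66 ± 0.12. The calls of these 3 were lost without VEH-HI 6 or VEH-HI 10: the limma adjusted p became 0.0622 without VEH-HI 6 and 0.0869 without VEH-HI 10 for Atf3, 0.108 without VEH-HI 6 and 0.0743 without VEH-HI 10 for Egr1 and 0.17 without VEH-HI 6 and 0.12 without VEH-HI 10 for Nr4a1. Egr1, Nr4a1 and Ier2 are named to complete the count and were chosen after their values were seen. Fos kept its call with the array median as a covariate (limma adjusted p = 0.00542), with a slope of 1.53 ± 0.20, and none of the other 7 did. Their slopes with the covariate were 1.15 ± 0.27 for Ier3, 0.81 ± 0.22 for Junb, 0.93 ± 0.24 for Ier2, 0.75 ± 0.20 for Jun, 1.18 ± 0.28 for Atf3, 0.52 ± 0.19 for Egr1 and 0.49 ± 0.20 for Nr4a1.

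Nr4a2, a relative of Nr4a1 that dopamine neurons need and that neuronal activity induces, went the other way. It read 8.09, 8.18, 8.41, 8.35 and 8.91 in VEH-HI 6 to 10 and 8.10, 8.52, 8.59, 8.39 and 7.50 in EPO-HI 11 to 15. Its lowest value was in EPO-HI 15 and its highest in VEH-HI 10, and it read 8.49 to 8.96 in VEH-Sham 1 to 4 and 8.84 in VEH-Sham 5. The slope was -0.57 ± 0.12 (limma adjusted p = 0.0406), with r = -0.835 (exact permutation p = 0.00257) and rho = -0.855, and the other 3 probe sets of Nr4a2 also had slopes below 0. The call was lost when 1 array was left out, with a limma adjusted p of 0.0525 to 0.247 without VEH-HI 6 or 10 or EPO-HI 11, 12, 13, 14 or 15. Homer1, a synaptic scaffold gene in the same list, read 8.32, 8.72, 9.08, 9.05 and 9.37 in VEH-HI 6 to 10 and 8.93, 8.90, 9.21, 9.13 and 8.72 in EPO-HI 11 to 15. It was lowest in VEH-HI 6, and its slope of -0.43 ± 0.11 did not pass (limma adjusted p = 0.112).

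**Figure D3:**
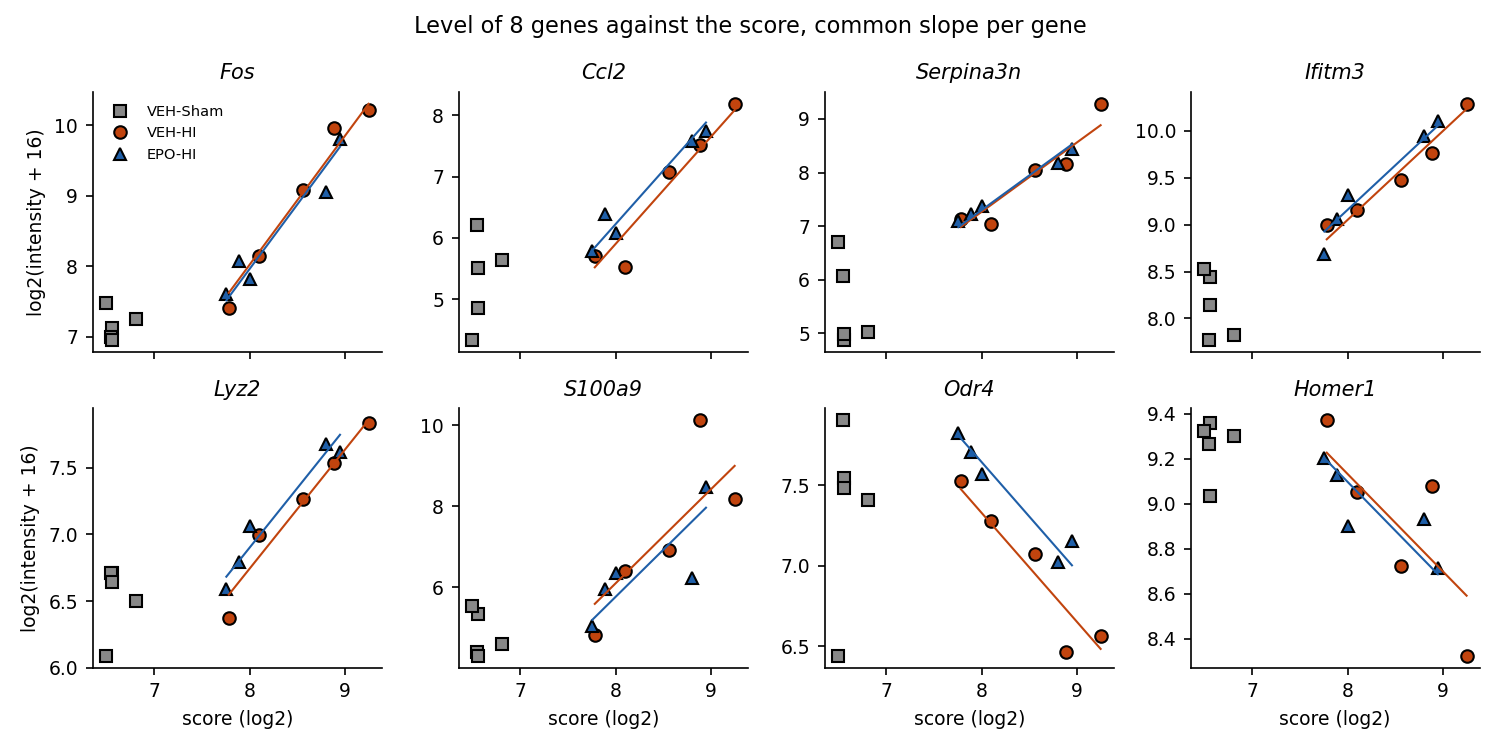
Level of 8 genes, log2(intensity + 16), against the score in each of 15 arrays; lines have the common slope fitted to the 10 arrays after hypoxic ischemia, drawn through each group's mean, and VEH-Sham arrays (squares) did not enter the fit. Fos climbs from 7.40 to 10.22 while Odr4 falls from 7.82 to 6.47 over the 10 arrays; the lines of the groups are parallel by construction, and for Odr4 the EPO-HI line lies above that of VEH-HI.

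Some chemokine and adhesion genes rose in step with the score. Of 18 tested chemokine, cytokine and adhesion genes, 6 rose and 0 fell, and the median slope was 0.50. The chemokine gene Ccl12 is a marker of the score, with 27.0% of its variance, and is not counted here. The result for this list therefore depends in part on the choice of markers. Ccl2, which attracts monocytes through the receptor CCR2, read 8.19, 7.07, 7.52, 5.52 and 5.70 in VEH-HI 6 to 10 and 7.58, 6.08, 5.78, 6.38 and 7.74 in EPO-HI 11 to 15. Arrays with high scores (VEH-HI 6, 7 and 8, EPO-HI 11 and 15) all read 7.07 or more, and the other 5 all read 6.38 or less. It read 4.85 to 6.21 in VEH-Sham 1 to 4 and 4.34 in VEH-Sham 5, and 4 of the 5 low-scoring arrays after hypoxic ischemia lay within the range of VEH-Sham 1 to 4. The slope was 1.75 ± 0.15 (limma adjusted p = 2.05e-05) with r = 0.967 (exact permutation p = 0.000625), and 0.945 without the 2 farthest arrays.

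Icam1, the endothelial ligand for leukocyte integrins, rose by 0.96 ± 0.15 per unit of score (limma adjusted p = 0.00295, 0.0559 without VEH-HI 6), and the chemokine gene Ccl9 by 0.91 ± 0.15 (limma adjusted p = 0.0065, 0.0622 without VEH-HI 6). Icam1 read 7.21, 6.46, 6.59, 5.65 and 5.57 in VEH-HI 6 to 10 and 6.25, 5.93, 5.80, 5.88 and 6.91 in EPO-HI 11 to 15, and its order over the arrays followed the score with rho = 0.952. The other called members, named after their values were seen, were Ccl3 at 1.05 ± 0.19, Ccl6 at 0.90 ± 0.16 and Cxcl10 at 0.97 ± 0.18. Their limma adjusted p of 0.0128, 0.011 and 0.0155 became 0.164 without VEH-HI 6 and 0.057 without EPO-HI 15 for Ccl3, 0.0541 without VEH-HI 10 for Ccl6 and 0.0888 without VEH-HI 6, 0.058 without EPO-HI 11 and 0.0624 without EPO-HI 15 for Cxcl10. Of the 6, Ccl2 alone kept its call with the array median as covariate (limma adjusted p = 0.0245).

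Some genes of IL-6 family signalling and of the Toll-like receptor and NF-kB pathway also followed the score. Of 15 tested genes of IL-6 family signalling and STAT3 targets, 4 rose (Cebpd, Osmr, Junb and Stat3) and 0 fell, with a median slope of 0.33. Socs3, itself a STAT3 target, is a marker of the score and was left out of the list. Cebpd, a transcription factor of the acute phase, read 9.06, 7.99, 8.37, 7.47 and 6.81 in VEH-HI 6 to 10 and 8.28, 8.18, 7.07, 7.73 and 8.83 in EPO-HI 11 to 15. It was highest in VEH-HI 6 and EPO-HI 15 and lowest in VEH-HI 10 and EPO-HI 13. Its slope was 1.25 ± 0.15 (limma adjusted p = 0.000295), with r = 0.931 (exact permutation p = 0.000417).

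Osmr, the receptor of oncostatin M, read 8.46, 7.28, 7.42, 6.97 and 6.52 in VEH-HI 6 to 10 and 7.44, 6.83, 6.58, 6.96 and 7.67 in EPO-HI 11 to 15. VEH-HI 6 stood more than 1 unit above VEH-HI 8, and EPO-HI 15 and 11 led their group, while all 10 lay above the sham arrays, which read 5.96 to 6.39 in VEH-Sham 1 to 4 and 6.18 in VEH-Sham 5. The slope of Osmr was 0.98 ± 0.13 (limma adjusted p = 0.000887), with rho = 0.988. Stat3, the transcription factor itself and chosen here after its values were seen, had a slope of 0.59 ± 0.13 (limma adjusted p = 0.0374), and its call was lost with a limma adjusted p of 0.0537 to 0.341 without VEH-HI 6 or EPO-HI 11, 12, 13, 14 or 15. Of the 2 other probe sets of Stat3, 1 had a slope above 0. Cebpd (limma adjusted p = 0.00482) and Osmr (0.0416) kept their calls with the array median as covariate, and Junb and Stat3 did not.

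All 13 tested genes of the Toll-like receptor and NF-kB list had slopes above 0, against 51.6% of all genes, with a median of 0.46. Of the 13, 4 were called, against 0.935% of all genes called higher. The co-receptor gene Cd14 is a marker of the score, with 22.5% of its variance, and is not counted here. This result too depends in part on the choice of markers. Nfkbiz, a nuclear regulator of NF-kB target genes, read 7.98, 7.16, 7.53, 6.98 and 6.26 in VEH-HI 6 to 10 and 7.04, 6.42, 6.25, 6.60 and 7.79 in EPO-HI 11 to 15. Its high values were in VEH-HI 6, 7 and 8 and EPO-HI 11 and 15, while it read 6.22 to 6.29 in VEH-Sham 1 to 4 and 6.09 in VEH-Sham 5. Of the 10, VEH-HI 10 and EPO-HI 13 lay within the range of VEH-Sham 1 to 4. The slope was 1.05 ± 0.13 (limma adjusted p = 0.000464), with r = 0.95 (exact permutation p = 0.000139).

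Nfkbia, which encodes the inhibitor that holds NF-kB in the cytoplasm, had a smaller slope of 0.46 ± 0.07 (limma adjusted p = 0.0038) but followed the score closely, with r = 0.98, and its other 4 probe sets moved the same way. Myd88, the adaptor of most Toll-like receptors, rose by 0.66 ± 0.12 per unit (limma adjusted p = 0.0161, 0.187 without VEH-HI 6, 0.0516 without EPO-HI 11 and 0.0603 without EPO-HI 15). Tlr2, chosen after its values were seen, rose by 0.62 ± 0.13 (limma adjusted p = 0.0393, 0.0603 to 0.283 without VEH-HI 6, 8, 9 or 10 or EPO-HI 11, 13, 14 or 15). Tnfrsf1a, the tumour necrosis factor receptor gene and in none of the lists, rose by 0.99 ± 0.14 (limma adjusted p = 0.00128, and 0.00227 with the array median as covariate); it too was chosen after its values were seen. None of the 4 list members kept its call with that covariate, with slopes of 1.07 ± 0.23 for Nfkbiz, 0.77 ± 0.22 for Myd88, 0.68 ± 0.23 for Tlr2 and 0.36 ± 0.11 for Nfkbia.

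Genes of reactive astrocytes held the largest share of risers among the lists: 11 of 19 tested genes rose, 0 fell and 17 had slopes above 0, with a median of 0.69. Vim, Timp1 and Cd14, which such lists usually hold, are markers of the score and were left out. The score was thus built in part from members of this list. Its place among the lists therefore depends in part on the choice of markers. Serpina3n, a secreted serine protease inhibitor, read 9.28, 8.05, 8.17, 7.03 and 7.13 in VEH-HI 6 to 10 and 8.17, 7.38, 7.09, 7.23 and 8.43 in EPO-HI 11 to 15. VEH-HI 6 was highest, more than 1 unit above VEH-HI 8, and VEH-HI 9 was lowest, while it read 4.88 to 6.07 in VEH-Sham 1 to 4 and 6.70 in VEH-Sham 5. Its slope was 1.30 ± 0.13 (limma adjusted p = 9.15e-05), with r = 0.954 (exact permutation p = 0.000278) and 0.954 without the 2 farthest arrays.

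Ptx3, a pattern recognition protein that binds complement C1q, read 9.78, 8.42, 8.69, 7.90 and 7.71 in VEH-HI 6 to 10 and 8.72, 8.23, 7.72, 8.04 and 8.75 in EPO-HI 11 to 15. It was highest in VEH-HI 6 by more than 1 unit, and it read 6.76 to 7.23 in VEH-Sham 1 to 4 and 7.13 in VEH-Sham 5, below every array after hypoxic ischemia. The slope was 1.06 ± 0.13 (limma adjusted p = 0.000576), 1.32 ± 0.16 within VEH-HI and 0.77 ± 0.17 within EPO-HI, a difference that did not pass (limma adjusted p = 0.654). Tgm1, a transglutaminase, S1pr3, a sphingosine-1-phosphate receptor, Emp1, Cp (ceruloplasmin, a copper-binding ferroxidase) and S100a6 completed the count beside Cd44, Osmr, Lcn2 and Hspb1, and were chosen after their values were seen. Their slopes were 1.08 ± 0.17, 1.04 ± 0.17, 0.69 ± 0.13, 0.69 ± 0.14 and 0.55 ± 0.10. The call of Tgm1 was lost with a limma adjusted p of 0.0771 without VEH-HI 6, that of S1pr3 with 0.0931 without VEH-HI 6 and 0.0716 without VEH-HI 10, that of Cp with 0.277 without VEH-HI 6, 0.219 without VEH-HI 10 and 0.0701 without EPO-HI 15, that of Emp1 with 0.0522 to 0.182 without VEH-HI 6 or 10 or EPO-HI 13 or 15 and that of S100a6 with 0.0579 to 0.159 without VEH-HI 6 or 10 or EPO-HI 13 or 15. With the array median as covariate 5 of the 11 were called: Serpina3n, Ptx3, Osmr, Tgm1 and S1pr3 (limma adjusted p of 0.0233 to 0.0416).

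Gfap, the astrocyte filament that defines astrogliosis, did not follow the score as closely and is named after its values were seen. It read 10.55, 10.54, 9.78, 9.84 and 8.84 in VEH-HI 6 to 10 and 10.72, 9.26, 9.61, 9.58 and 9.34 in EPO-HI 11 to 15. All 10 lay above the sham arrays (8.33 to 8.78 in VEH-Sham 1 to 4 and 8.74 in VEH-Sham 5), with the highest values in EPO-HI 11 and VEH-HI 6 and 7, but EPO-HI 15, the array with the highest score of its group, read lower than EPO-HI 13 and 14. The slope of 0.68 ± 0.24 did not pass (limma adjusted p = 0.318), with rho = 0.418 (exact permutation p = 0.266). Of 15 general astrocyte markers 0 were called, 12 had slopes above 0 and the median was 0.13. The member with the smallest p, Mlc1, a membrane protein of astrocyte end feet, had 0.28 ± 0.08 (limma adjusted p = 0.203).

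Among 21 tested genes of microglia and macrophages 3 rose, 0 fell and 19 had slopes above 0, with a median of 0.35. At an unadjusted limma p under 0.05, 14 of the 21 rose and 1 fell, against 6.82% and 4.06% of all genes. Cd68 is a marker of the score and was left out of the list. Lyz2, lysozyme of macrophages and neutrophils, read 7.83, 7.27, 7.53, 7.00 and 6.37 in VEH-HI 6 to 10 and 7.68, 7.06, 6.59, 6.79 and 7.62 in EPO-HI 11 to 15. Its values climbed with the score in both groups and overlapped between them, while it read 6.50 to 6.71 in VEH-Sham 1 to 4 and 6.09 in VEH-Sham 5. EPO-HI 13 lay within the range of VEH-Sham 1 to 4, and VEH-HI 10 lay below that range and above VEH-Sham 5. The slope was 0.89 ± 0.11 (limma adjusted p = 0.000342), with r = 0.974 (exact permutation p = 0.000139) and 0.971 without the 2 farthest arrays. Lyz1 is a near-identical copy, and signal of the 2 genes may not be separable on the array. Msr1, a scavenger receptor, rose by 0.97 ± 0.18 (limma adjusted p = 0.0153, 0.195 without VEH-HI 6, 0.0521 without EPO-HI 11 and 0.0603 without EPO-HI 15) and Fcgr3, an activating Fc receptor, by 0.65 ± 0.13 (limma adjusted p = 0.0295; 0.0578 to 0.213 without VEH-HI 6 or 10 or EPO-HI 11, 13, 14 or 15).

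The following 4 genes, which microglia express at rest, were not called, though most genes of the list had slopes above 0. Cx3cr1, the fractalkine receptor, had a slope of 0.09 ± 0.14 (limma adjusted p = 0.893), Csf1r, the receptor for their survival factor, 0.05 ± 0.12 (0.934), and Tyrobp, a signalling adaptor, 0.28 ± 0.13 (0.494), and none of the 3 passed. The purinergic receptor gene P2ry12, which resting microglia express, read 7.10, 7.08, 7.39, 7.93 and 7.64 in VEH-HI 6 to 10 and 6.98, 7.77, 7.35, 7.27 and 7.05 in EPO-HI 11 to 15. All 10 values lay below the sham arrays (7.94 to 8.40 in VEH-Sham 1 to 4 and 7.97 in VEH-Sham 5), and VEH-HI 9, a low-scoring array, was highest. Its slope was -0.43 ± 0.14 and did not pass (limma adjusted p = 0.247). These 4 genes were chosen after their values were seen.

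C1qc, a chain of complement C1q made by microglia, read 8.69, 8.43, 8.24, 8.28 and 8.02 in VEH-HI 6 to 10 and 8.58, 8.32, 7.87, 7.87 and 8.63 in EPO-HI 11 to 15. Every array lay above the sham arrays (6.67 to 7.33 in VEH-Sham 1 to 4 and 7.16 in VEH-Sham 5), and EPO-HI 11 and 15 stood above the other 3 of their group. Its slope of 0.47 ± 0.11 just missed the threshold (limma adjusted p = 0.0511), and passed with the array median as covariate (limma adjusted p = 0.033). C1qa behaved alike, at 0.46 ± 0.14 (limma adjusted p = 0.238, and 0.0161 with the covariate), as did Tyrobp with the covariate (limma adjusted p = 0.0409). With the array median in the model, 6 of the 21 microglia and macrophage genes were called and the median slope was 0.63. Of 9 tested complement genes 0 were called in the model without the covariate and 8 had slopes above 0 (median 0.33).

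Of 9 tested neutrophil genes 3 rose, S100a9, S100a8 and Lcn2, while 4 had slopes below 0 and the median was 0.18. S100a9 read 8.17, 6.92, 10.13, 6.42 and 4.83 in VEH-HI 6 to 10 and 6.24, 6.36, 5.05, 5.96 and 8.47 in EPO-HI 11 to 15. VEH-HI 8 stood highest of all, EPO-HI 15 stood alone above the rest of its group, and EPO-HI 11, with the second-highest score of its group, read below EPO-HI 12. It read 4.31 to 5.34 in VEH-Sham 1 to 4 and 5.55 in VEH-Sham 5, and VEH-HI 10 and EPO-HI 13 lay within the range of VEH-Sham 1 to 4. The slope was 2.32 ± 0.45 (limma adjusted p = 0.0204), r = 0.796 (exact permutation p = 0.00896) and rho = 0.867, and the call was lost with a limma adjusted p of 0.187 without VEH-HI 10, 0.0531 without EPO-HI 13 and 0.0966 without EPO-HI 15.

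S100a8, whose protein pairs with that of S100a9, had a slope of 2.19 ± 0.46 (limma adjusted p = 0.0342; 0.0629 to 0.226 without VEH-HI 9 or 10 or EPO-HI 13, 14 or 15). Lcn2 read 7.82, 6.01, 9.21, 5.37 and 4.85 in VEH-HI 6 to 10 and 6.59, 6.00, 5.48, 5.69 and 7.68 in EPO-HI 11 to 15. VEH-HI 8, VEH-HI 6 and EPO-HI 15 held its highest values, as they did for S100a9, and reactive astrocytes are also known to make Lcn2. The slope of Lcn2 was 2.09 ± 0.36 (limma adjusted p = 0.00844, 0.0743 without VEH-HI 10). None of the 3 was called with the array median as covariate, with slopes of 1.67 ± 0.78 for S100a9, 1.75 ± 0.82 for S100a8 and 1.09 ± 0.56 for Lcn2. Of 12 genes of T and B cells, 9 had a probe set with 1 symbol, only 2 were bright enough to test, and 0 were called.

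Genes of the interferon response and MHC class I rose in part: 3 of 18 tested rose, 0 fell, 16 had slopes above 0 and the median was 0.36. Ifitm3, an interferon-induced membrane protein that restricts virus entry and whose promoter is shown above, read 10.29, 9.48, 9.76, 9.16 and 9.00 in VEH-HI 6 to 10 and 9.94, 9.31, 8.69, 9.06 and 10.11 in EPO-HI 11 to 15. Its order followed the score almost array by array (rho = 0.988), and all 10 values lay above the sham arrays (7.77 to 8.44 in VEH-Sham 1 to 4 and 8.53 in VEH-Sham 5). The slope was 0.95 ± 0.09 (limma adjusted p = 4.98e-05), r = 0.972 with the smallest permutation p possible, 6.94e-05, by exact permutation. Adding the array median as covariate left a limma adjusted p of 0.00328.

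Ifi202b, an interferon-inducible DNA-binding protein gene with the STAT letters shown above and in none of the lists, read 7.46, 6.85, 6.96, 5.58 and 5.41 in VEH-HI 6 to 10 and 7.11, 6.40, 5.27, 6.05 and 8.18 in EPO-HI 11 to 15. It was highest in EPO-HI 15 and VEH-HI 6, and every array after hypoxic ischemia lay above the sham arrays (4.24 to 4.53 in VEH-Sham 1 to 4 and 4.77 in VEH-Sham 5). Its slope was 1.67 ± 0.18 (limma adjusted p = 0.000119), 1.49 ± 0.24 within VEH-HI and 1.88 ± 0.26 within EPO-HI. Gbp2, a guanylate-binding protein induced by interferon gamma, read 7.13, 6.36, 6.27, 6.15 and 5.64 in VEH-HI 6 to 10 and 6.87, 5.91, 5.43, 5.58 and 6.71 in EPO-HI 11 to 15. VEH-HI 6 and EPO-HI 11 and 15 were highest, while it read 5.27 to 5.51 in VEH-Sham 1 to 4 and 5.53 in VEH-Sham 5. EPO-HI 13, the lowest, lay within the range of VEH-Sham 1 to 4. The slope of Gbp2 was 0.98 ± 0.15 (limma adjusted p = 0.00287). B2m, the light chain of MHC class I, rose by 0.64 ± 0.14 (limma adjusted p = 0.0406; 0.0828 to 0.2 without VEH-HI 6 or 10 or EPO-HI 11, 13, 14 or 15). All of Ifitm3, Ifi202b, Gbp2 and B2m kept their calls with the array median as covariate.

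Some matrix genes rose as well. Of 17 tested genes of matrix, proteases and osteopontin 6 rose and 0 fell, with a median slope of 0.30. Timp1, the inhibitor of matrix metalloproteinases, is a marker of the score and is not counted here. Tgfbi, an extracellular matrix protein induced by transforming growth factor beta, read 8.25, 7.59, 7.82, 6.94 and 6.40 in VEH-HI 6 to 10 and 7.47, 7.17, 6.60, 7.22 and 7.96 in EPO-HI 11 to 15. It was highest in VEH-HI 6 and EPO-HI 15 and lowest in VEH-HI 10 and EPO-HI 13, and VEH-HI 10 lay below every sham array (6.50 to 6.96 in VEH-Sham 1 to 4 and 6.71 in VEH-Sham 5). The slope was 1.03 ± 0.13 (limma adjusted p = 0.000594), with r = 0.938 (exact permutation p = 0.000139), and its other 2 probe sets moved the same way.

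Anxa2, a calcium-dependent phospholipid-binding protein, rose by 0.77 ± 0.10 (limma adjusted p = 0.000546) and Cd44, the hyaluronan receptor, by 0.72 ± 0.11 (limma adjusted p = 0.00256), both without losing the call to any single array. Lgals3 (galectin 3) at 0.86 ± 0.13, Anxa1 at 0.67 ± 0.13 and Anxa3 at 0.46 ± 0.10, chosen after their values were seen, completed the count. The limma adjusted p of these 3, 0.00395, 0.0178 and 0.0472, became 0.0569 without VEH-HI 6 for Lgals3, 0.181 without VEH-HI 6, 0.18 without VEH-HI 10 and 0.0686 without EPO-HI 15 for Anxa1 and 0.0508 to 0.368 without VEH-HI 6, 7, 9 or 10 or EPO-HI 11, 12, 13, 14 or 15 for Anxa3. Tgfbi (limma adjusted p = 0.0432) and Lgals3 (0.0196) were the 2 of the 6 called with the array median as covariate.

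Ccn1, a matricellular protein and textbook target of YAP and serum response factor, was among the 10 risers with the smallest p and in none of the lists. It read 8.17, 7.55, 7.87, 6.14 and 5.46 in VEH-HI 6 to 10 and 7.72, 6.49, 5.81, 6.60 and 7.73 in EPO-HI 11 to 15. The 5 arrays with the highest scores all read 7.55 or more and the other 5 read 6.60 or less, and VEH-HI 10 and EPO-HI 13 lay below every sham array (6.07 to 6.47 in VEH-Sham 1 to 4 and 5.82 in VEH-Sham 5). The slope was 1.72 ± 0.16 (limma adjusted p = 3.6e-05), with r = 0.96 (exact permutation p = 0.000208) and rho = 0.988. Tm4sf1, a membrane protein of endothelial cells, read 8.81, 8.21, 8.24, 7.89 and 7.20 in VEH-HI 6 to 10 and 8.40, 7.50, 7.14, 7.40 and 8.27 in EPO-HI 11 to 15. Its order was close to that of the score (rho = 0.952), and it read 6.10 to 6.84 in VEH-Sham 1 to 4 and 7.15 in VEH-Sham 5. The slope of Tm4sf1 was 0.97 ± 0.10 (limma adjusted p = 0.000125), and it kept its call with the array median as covariate (limma adjusted p = 0.00836), as did Ccn1 (0.0196).

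Cyp1b1, a cytochrome P450 that acts on steroids and fatty acids, read 8.58, 7.35, 8.04, 7.05 and 6.48 in VEH-HI 6 to 10 and 7.49, 6.54, 6.77, 6.60 and 7.83 in EPO-HI 11 to 15. VEH-HI 6 and 8 and EPO-HI 15 were highest, while it read 4.96 to 6.07 in VEH-Sham 1 to 4 and 7.00 in VEH-Sham 5. All 10 arrays lay above VEH-Sham 1 to 4, but 4 lay below VEH-Sham 5. The slope was 1.20 ± 0.12 (limma adjusted p = 9.71e-05) with rho = 0.867, and with the array median as covariate the limma adjusted p was 0.0662. Of 15 tested endothelial and blood-brain barrier genes 2 rose, 13 had slopes above 0 and the median was 0.33. The glucose transporter gene Slc2a1, which is also induced by hypoxia, rose by 0.50 ± 0.10 (limma adjusted p = 0.0243; 0.0579 to 0.2 without VEH-HI 6 or 10 or EPO-HI 13 or 15). Vwf, the clotting protein of endothelial granules, rose by 0.72 ± 0.16 (limma adjusted p = 0.0489; 0.0604 to 0.453 without VEH-HI 6, 7 or 10 or EPO-HI 11, 12, 13, 14 or 15). Cldn5, the tight junction claudin, did not pass at 0.38 ± 0.09 (limma adjusted p = 0.0624).

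Among genes of cells around vessels, 0 of 9 pericyte and smooth muscle genes were called (median 0.30). Pdgfrb, the pericyte receptor, had 0.54 ± 0.13 (limma adjusted p = 0.0714). Of 12 genes of meninges and fibroblasts 1 was called (median 0.22): Aldh1a2, a retinoic acid synthesis enzyme of the meninges, at 0.53 ± 0.12 (limma adjusted p = 0.0492; 0.0652 to 0.401 without VEH-HI 6, 7, 9 or 10 or EPO-HI 11, 12, 13 or 15). Fibronectin, Fn1, had 0.47 ± 0.11 and did not pass (limma adjusted p = 0.055). Col4a1, a chain of basement membrane collagen chosen after its values were seen, rose by 0.64 ± 0.10 (limma adjusted p = 0.00407, 0.0631 without VEH-HI 6).

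Stress genes rose selectively. Of 18 tested heat shock and chaperone genes 3 rose (Hspa1a, Hspb1 and Hmox1), while the list's median slope was only 0.057 and 7 members had slopes below 0. Hspa1a, the inducible HSP70, read 8.40, 7.04, 8.06, 6.47 and 5.98 in VEH-HI 6 to 10 and 6.95, 6.51, 6.00, 6.29 and 6.98 in EPO-HI 11 to 15. VEH-HI 6 and 8 stood more than 1 unit above every EPO-HI array, and the other arrays overlapped, while it read 5.94 to 6.64 in VEH-Sham 1 to 4 and 6.28 in VEH-Sham 5. The slope was 1.26 ± 0.17 (limma adjusted p = 0.000915), 1.72 ± 0.16 within VEH-HI and 0.74 ± 0.17 within EPO-HI. That difference between groups did not pass (limma adjusted p = 0.398). Hspb1, the small heat shock protein HSP27, rose by 0.85 ± 0.18 (limma adjusted p = 0.0315; 0.0545 to 0.212 without VEH-HI 6 or 10 or EPO-HI 11, 14 or 15).

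Hmox1, heme oxygenase 1, which degrades heme, was also the single riser of 14 tested NRF2 targets and metallothioneins (median 0.16). It read 7.58, 6.93, 7.25, 6.21 and 6.19 in VEH-HI 6 to 10 and 7.34, 6.23, 5.91, 6.07 and 7.01 in EPO-HI 11 to 15. The 5 arrays with high scores read 6.93 or more and the other 5 read 6.23 or less, while it read 4.36 to 5.79 in VEH-Sham 1 to 4 and 5.94 in VEH-Sham 5. EPO-HI 13, at 5.91, lay below VEH-Sham 5 and the other 9 above it. The slope was 1.06 ± 0.12 (limma adjusted p = 0.000242), with r = 0.971 (exact permutation p = 0.000486) and 0.977 without the 2 farthest arrays. Its limma adjusted p was 0.0661 with the array median as covariate. Nfe2l2, the NRF2 gene itself and chosen after its values were seen, rose by 0.61 ± 0.11 (limma adjusted p = 0.015; 0.194 without VEH-HI 6, 0.101 without VEH-HI 10 and 0.0517 without EPO-HI 11).

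The metallothionein genes Mt2 and Mt1, zinc-binding proteins, had slopes of 0.69 ± 0.17 and 0.54 ± 0.21 and did not pass (limma adjusted p = 0.0823 and 0.389). Mt1, chosen after its values were seen, read 11.68, 10.53, 11.18, 11.80 and 10.75 in VEH-HI 6 to 10 and 10.83, 10.68, 10.38, 10.52 and 11.73 in EPO-HI 11 to 15. VEH-HI 9, with a low score, was the highest of the 10, and all lay above the sham arrays (9.05 to 9.40 in VEH-Sham 1 to 4 and 9.93 in VEH-Sham 5).

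Of 25 tested glycolysis and hypoxia-inducible genes 2 rose, Plin2 and Slc2a1, and the median slope was 0.024, near that of all genes. Plin2, which coats lipid droplets, read 9.97, 9.20, 9.31, 8.92 and 8.35 in VEH-HI 6 to 10 and 9.67, 8.67, 8.20, 8.50 and 9.23 in EPO-HI 11 to 15. All 10 values lay above the sham arrays (7.52 to 7.86 in VEH-Sham 1 to 4 and 7.65 in VEH-Sham 5), and VEH-HI 6 and EPO-HI 11 were highest in their groups. The slope was 0.98 ± 0.11 (limma adjusted p = 0.000242), 0.97 ± 0.16 within VEH-HI and 0.99 ± 0.17 within EPO-HI, and the call held with the array median as covariate (limma adjusted p = 0.00886). Angptl4, an inhibitor of lipoprotein lipase chosen after its values were seen, rose by 0.70 ± 0.10 (limma adjusted p = 0.0022).

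Of 21 tested apoptosis and p53 genes 1 rose (median 0.20). This was Gadd45b, a stress gene of the DNA damage response, at 1.10 ± 0.15 (limma adjusted p = 0.000915). Its relative Gadd45g, chosen after its values were seen, rose by 1.06 ± 0.12 (limma adjusted p = 0.000247). In 22 genes of the unfolded protein and integrated stress response Atf3 alone rose (median 0.12), and in 12 glucocorticoid-responsive genes Lcn2 alone rose (median 0.15). Of 21 lysosome and lipid genes 1 rose (median 0.21), the lysosomal membrane gene Lamp2, at 0.54 ± 0.11 (limma adjusted p = 0.0243; 0.0578 to 0.272 without VEH-HI 6 or EPO-HI 11, 14 or 15).

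In the erythroid list, 4 of 8 genes had a probe set with 1 symbol, 3 were bright enough to test and 1 rose. Alas2, the erythroid enzyme of heme synthesis, had 0.64 ± 0.12 (limma adjusted p = 0.0171, 0.215 without VEH-HI 6 and 0.0568 without EPO-HI 11). Epor, the receptor of erythropoietin, had 0.39 ± 0.16 and did not pass (limma adjusted p = 0.445). The slope of Epor turned to -0.06 with the array median as covariate (limma adjusted p = 0.952).

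**Figure D4:**
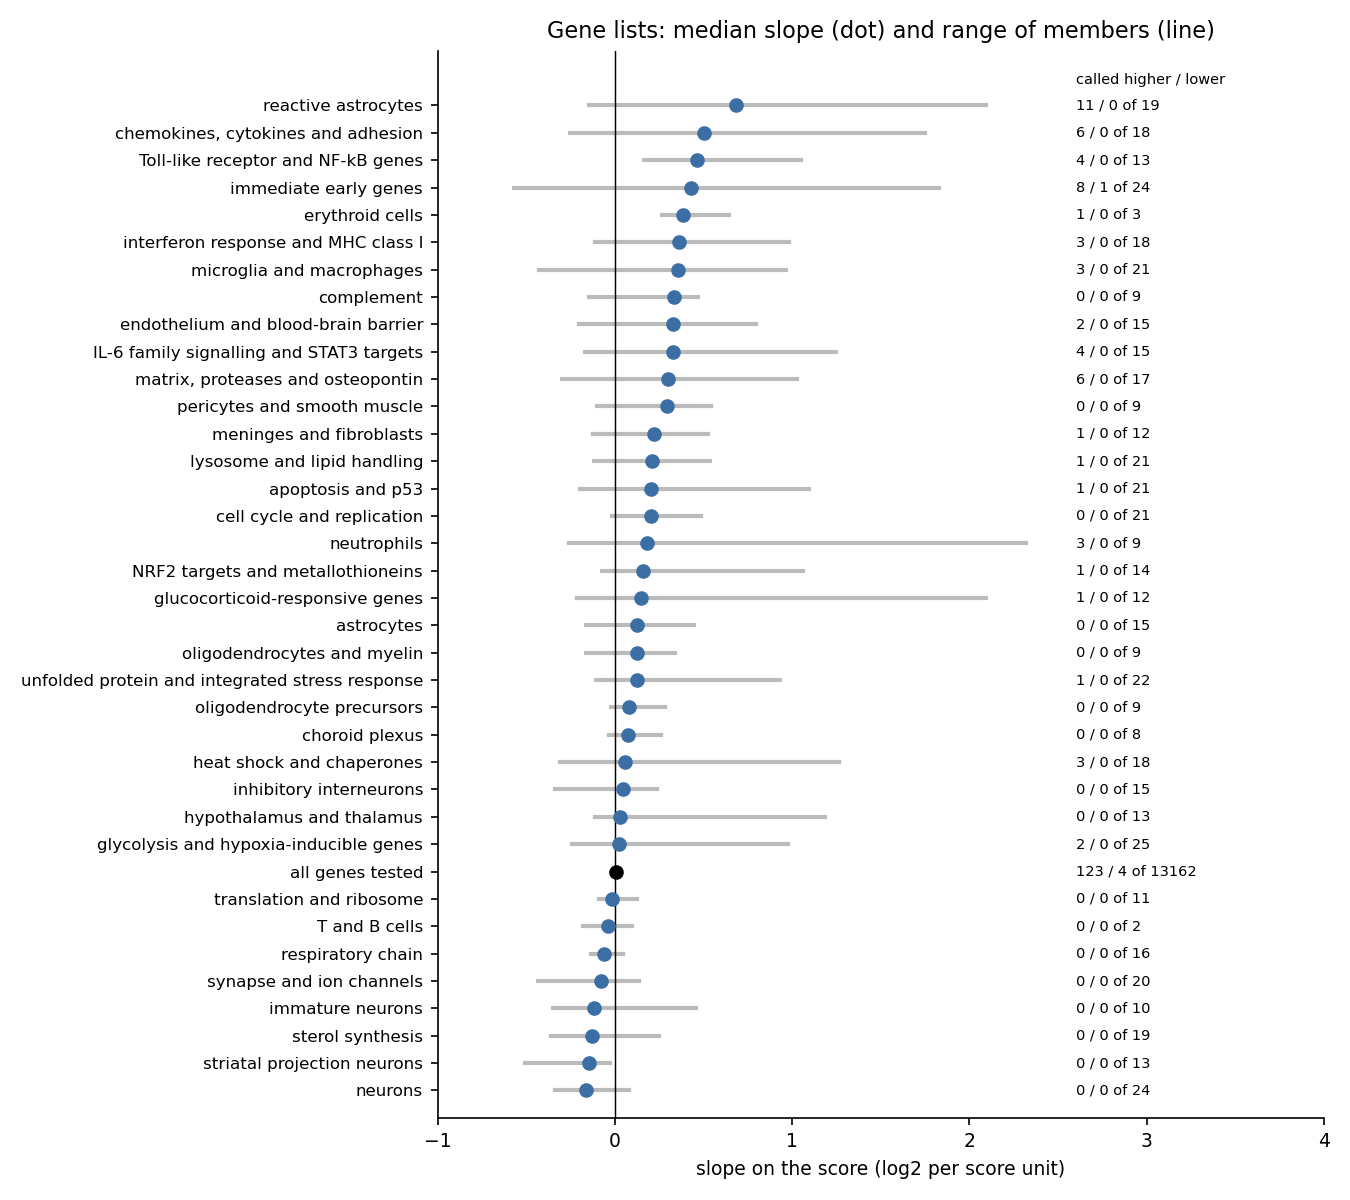
Slope on the score, in log2 units per unit of score, for 36 gene lists and all genes tested (black): the dot is the median and the line runs from the lowest to the highest member, with the counts called higher and lower of those tested at the right. Reactive astrocyte genes, the list from which the score markers Vim, Timp1 and Cd14 were left out, have the highest median, 0.69. Neuron genes have the lowest, -0.16.

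Neuronal genes lay on the other side of 0, and none passed. Of 24 tested neuron genes 23 had slopes below 0 (median -0.16), of 13 striatal projection neuron genes all 13 (median -0.15), of 20 synapse and ion channel genes 15 (median -0.079) and of 10 immature neuron genes 8 (median -0.12). Unadjusted limma p under 0.05 with a slope below 0 was reached by 5, 2, 4 and 1 of them, against 4.06% of all genes. Inhibitory interneuron genes were divided, with 6 of 15 below 0 (median 0.048). With the array median as covariate the medians were -0.31 for neurons, -0.38 for striatal, -0.25 for synapse and -0.33 for immature neuron genes, with 1 synapse gene called lower and 0 in the other 3 lists. That gene, the calmodulin-dependent kinase gene Camk4, was chosen after its values were seen and had -1.10 ± 0.17 with the covariate (limma adjusted p = 0.0169) and -0.32 ± 0.17 without it (0.573). The medians of these 4 lists lay below 0 in every alternative setting run.

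Drd1, the dopamine receptor of direct-pathway striatal neurons, read 6.99, 7.89, 7.94, 7.99 and 8.16 in VEH-HI 6 to 10 and 7.97, 8.49, 8.20, 8.09 and 7.78 in EPO-HI 11 to 15. VEH-HI 6 stood apart below the rest, and the others varied between 7.78 and 8.49, while it read 7.66 to 8.04 in VEH-Sham 1 to 4 and 8.11 in VEH-Sham 5. The slope was -0.51 ± 0.13 (limma adjusted p = 0.115), with r = -0.77 and -0.608 without the 2 farthest arrays. Neurod6, a transcription factor of cortical pyramidal neurons, had -0.33 ± 0.11 (limma adjusted p = 0.286), Rbfox3, which encodes the neuronal nuclear protein NeuN, -0.28 ± 0.10 (0.338), and the neuronal tubulin gene Tubb3 -0.34 ± 0.13 (0.399).

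Of 19 tested sterol synthesis genes 17 had slopes below 0 (median -0.13), and 0 were called. Stard4, a cholesterol transfer protein regulated with this pathway, read 7.14, 7.85, 7.76, 7.47 and 7.80 in VEH-HI 6 to 10 and 7.29, 8.01, 8.07, 7.90 and 7.69 in EPO-HI 11 to 15. VEH-HI 6 and EPO-HI 11 were lowest, and all 10 lay below the sham arrays (8.25 to 8.54 in VEH-Sham 1 to 4 and 8.43 in VEH-Sham 5). The slope was -0.36 ± 0.13 (limma adjusted p = 0.342, exact permutation p of r = 0.0498). Msmo1, an enzyme of the pathway, had -0.29 ± 0.11 (limma adjusted p = 0.388).

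Over 11 ribosome genes the median slope was -0.017, with -0.24 within VEH-HI and 0.21 within EPO-HI, and over 16 respiratory chain genes it was -0.059, with -0.16 and 0.11. The medians within the 2 groups were thus of opposite sign, a difference that was not tested for the lists, and 0 genes were called in each. Of 21 cell cycle genes 20 had slopes above 0 (median 0.20) and 0 were called. Likewise 0 were called of 9 oligodendrocyte and myelin genes (median 0.13), 9 oligodendrocyte precursor genes (0.08), 8 choroid plexus genes (0.076) and 13 genes of hypothalamus and thalamus (0.029).

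The 4 genes that fell were Odr4, Rhof, Nr4a2 and Bend6. Odr4, which takes part in the trafficking of membrane receptors, read 6.56, 7.07, 6.47, 7.27 and 7.52 in VEH-HI 6 to 10 and 7.02, 7.57, 7.82, 7.70 and 7.15 in EPO-HI 11 to 15. Its 5 lowest values were in the 5 arrays with the highest scores, VEH-HI 8, VEH-HI 6, EPO-HI 11, VEH-HI 7 and EPO-HI 15 in that order, and its highest were in EPO-HI 13 and 14. It read 7.41 to 7.90 in VEH-Sham 1 to 4 and 6.44 in VEH-Sham 5. The slope was -0.68 ± 0.11 (limma adjusted p = 0.00444), with r = -0.951 (exact permutation p = 0.000833) and -0.968 without the 2 farthest arrays, and it kept its call with any single array left out.

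Rhof, a small GTPase that forms filopodia, read 6.93, 7.32, 7.39, 7.71 and 8.05 in VEH-HI 6 to 10 and 7.16, 7.72, 7.61, 7.76 and 7.07 in EPO-HI 11 to 15. The 5 arrays with high scores read 7.39 or less and the other 5 read 7.61 or more. The slope was -0.63 ± 0.10 (limma adjusted p = 0.0051, 0.0634 without VEH-HI 6 and 0.0588 without VEH-HI 10), with r = -0.953 (exact permutation p = 0.00139), but the slope of its other probe set did not lie below 0. Bend6, a BEN domain protein gene, had -0.50 ± 0.11 (limma adjusted p = 0.0394; 0.0543 to 0.371 without VEH-HI 6, 7, 9 or 10 or EPO-HI 11, 12, 13 or 14), and its other probe set likewise did not have a slope below 0. The next in order by p, Slc8a1, Zc2hc1a, Negr1, Nrsn1, Cadps2 and Nudt17, had slopes of -0.52 ± 0.12, -0.40 ± 0.09, -0.40 ± 0.09, -0.36 ± 0.08, -0.46 ± 0.11 and -0.75 ± 0.18 and limma adjusted p of 0.0568 to 0.0791. Among them are the sodium-calcium exchanger (Slc8a1), a neuronal growth regulator (Negr1), neurensin (Nrsn1) and a vesicle priming factor (Cadps2). None of the 4 genes that fell kept its call with the array median as covariate, although the slopes were of similar size with larger SE, at -0.58 ± 0.18 for Odr4, -0.64 ± 0.18 for Rhof, -0.70 ± 0.21 for Nr4a2 and -0.62 ± 0.18 for Bend6.

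**Figure D5:**
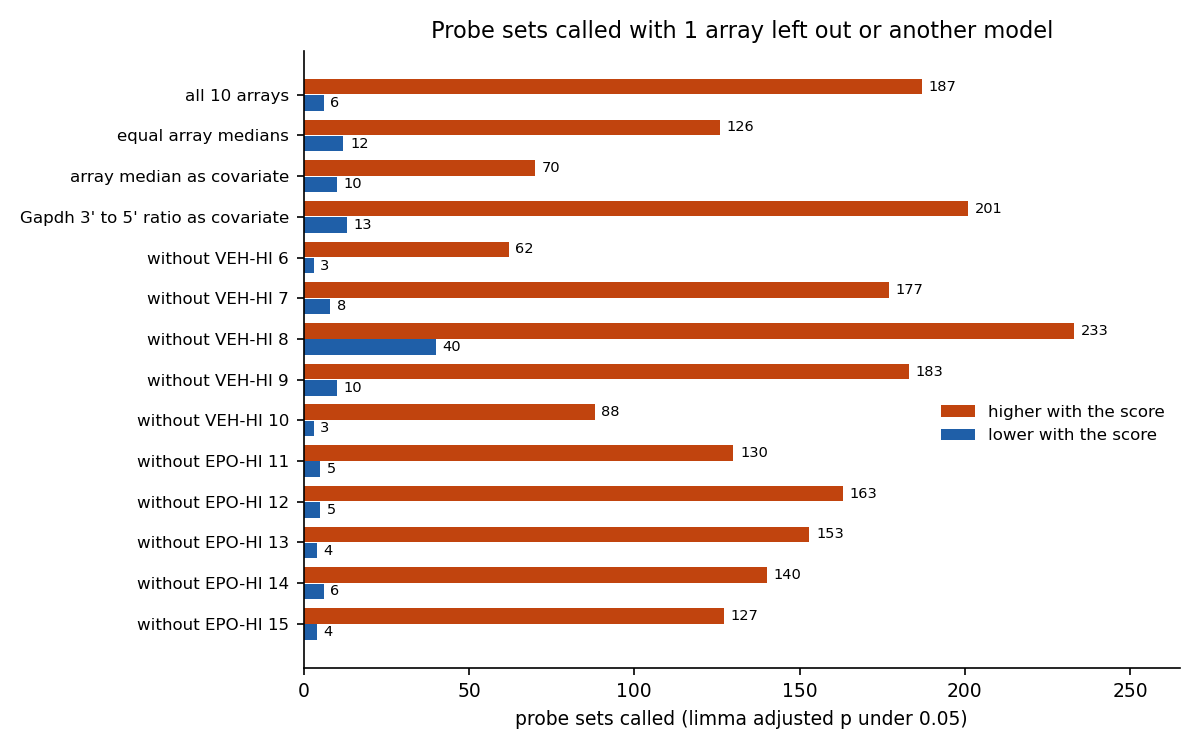
Number of probe sets called higher (red) and lower (blue) with the score, limma adjusted p under 0.05, in the fit of all 10 arrays, in fits with equal array medians or a further covariate, and in fits that leave out 1 array. The count of risers falls from 187 to 62 without VEH-HI 6, to 88 without VEH-HI 10 and to 70 with the array median as covariate.

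Finally, the slopes of VEH-HI and EPO-HI were compared gene by gene, to see whether genes followed the score alike with and without erythropoietin. Of 27012 probe sets 0 differed in slope in limma (0%; smallest adjusted p 0.374), while 1982 had an unadjusted p under 0.05 against 1351 expected by chance. Fos had slopes of 2.00 ± 0.17 within VEH-HI and 1.62 ± 0.18 within EPO-HI, Ccl2 1.90 ± 0.21 and 1.58 ± 0.22, and Serpina3n 1.47 ± 0.17 and 1.09 ± 0.19, and none of these differences passed (limma adjusted p = 0.773, 0.854 and 0.779). Without EPO-HI 11, 5 probe sets differed. With 5 arrays in each group a difference between slopes is poorly measured, and the absence of calls does not show that the slopes are alike.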

How the data were processed

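The authors deposited linear intensities, 1 per probe set and array, for 15 arrays. From the values, each array was scaled so that its mean, with 2% trimmed at each end, is 150.0 (probe summary software: not given in the sources used here). All columns were matched by name. The deposited intensities were converted to log2(intensity + 16), so slopes of dim genes are understated. The 60% brightest of 45037 probe sets without the 64 controls were tested (27022, mean log2 of at least 5.46). Symbols came from the platform's annotation (34945 probe sets with 1 symbol, 932 with several, 9160 with none) and were checked against RefSeq's mouse genes (GRCm38.p6), where 34741 matched by number and 0 changed.

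Slopes were fitted with limma 3.58.1 (lmFit, eBayes with trend) under R 4.3.3, two-sided. Permutations within groups, counts and figures used Python 3.11.15, scipy 1.17.1 and matplotlib 3.10.9. The fit was tested on simulated data with known slopes. The members, markers and gene lists were chosen with earlier results of these data known. The naming rule took, in each direction, the 10 genes with the smallest p and the 5 with the largest slope among those called, and up to 3 genes of each list with the smallest p; predicted genes were counted only. No explanation of any result was tested. Alternatives covered scaling, pseudocount, filter, makeup of the score, covariates and single arrays.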

Additional observations from a re-analysis of the deposited data

Results flagged for a closer look

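A single array stood far from the other 4 of its group, its gap to the nearest being above 0.71 of the group's range, Dixon's critical value for 5 samples, in 5 of 68 groups examined. Chance flags about 1 in 20 groups, but Xist, Gh and Pomc, which gave 4 of the 5, were picked after their values were seen, so the count is not compared with chance. Drd1 read 6.99 in VEH-HI 6, against 7.89 to 8.16 in the other VEH-HI arrays. Xist read 4.13 in VEH-HI 6, against 8.89 to 9.65, and 7.33 in EPO-HI 12, against 9.05 to 9.48. In EPO-HI 15, Pomc read 10.46, against 6.05 to 6.55 in the other EPO-HI arrays, and Gh read 11.09, against 5.53 to 6.09. VEH-Sham 3 was high for both too, at 8.90 for Pomc and 10.26 for Gh.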

How the results depend on the processing

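Against 187 probe sets that rose and 6 that fell with all 10 arrays, 104 rose without a filter on dim probe sets, 96 among the 30% brightest, and 70 rose and 10 fell with the array median as covariate. With equal array medians, which moved the median slope to -0.047, 12 fell, with the score without Cd14 10, without subtracting group means 10, with the Gapdh ratio as covariate 13 and with ranks of the score 12. Leaving out 1 array gave 62 to 233 risers and 3 to 40 falls (62 and 3 without VEH-HI 6, 88 and 3 without VEH-HI 10, 40 falls without VEH-HI 8, 10 without VEH-HI 9), and 0 to 5 probe sets whose slope differed between groups (5 without EPO-HI 11). Of settings chosen after seeing the data, leaving out EPO-HI 11 and 15 gave 80 and 3, and leaving out VEH-HI 6 and EPO-HI 15 gave 26 and 0. Fewer arrays or tested probe sets are part of these settings; otherwise the cause was not tested. No called gene named in the text changed sign. Slopes of genes that were not called reversed for Epor (-0.064 with the array median as covariate) and, with 1 array left out, ran from -0.080 (without VEH-HI 6) to 0.26 for Cx3cr1, -0.10 (without VEH-HI 6; -0.013 without EPO-HI 13) to 0.10 for Csf1r, -0.057 (without EPO-HI 15) to 1.86 for Gh, -1.74 to 0.36 (without VEH-HI 6) for Xist and -0.18 (without VEH-HI 6; -0.13 without VEH-HI 10) to 0.48 for Eif2s3y. Without VEH-HI 6 and EPO-HI 15 they were -0.087 for Csf1r, -0.13 for Gh, 0.13 for Xist and -0.012 for Eif2s3y, and without EPO-HI 11 and 15 -0.25 for Gh. The median slopes of the neuron, striatal, immature neuron, synapse and sterol lists stayed below 0 in every setting run. Genes outside the 30% brightest probe sets gave no value under that filter. No paired analysis was possible because replicate numbers run through the whole series and no number is shared between groups.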
